A study of Mus musculus with 2 samples.

Results

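Secreted growth factors and growth factor antagonists were followed in immobilized mouse calf muscle, namely the ligands Mstn, Gdf11, Inhba, Gdf5, Gdf6, Bmp4 and Bmp7 and the extracellular binding proteins Fst, Fstl1 and Nog, 10 genes in all. They were chosen by name, as all non-control probes whose gene name on the array was that of one of these 10 genes. This gave 12 probes, of 39418 probes with a value on the array. Of the 10 genes, 9 were measured on both arrays, out of 15142 genes measured in all, and Gdf6 was not well above background on either. The groups were cast muscle, from the gastrocnemius of male C57BL/6 mice aged 9 weeks whose hindlimbs had been immobilized for 11 days with plaster, and control muscle from male C57BL/6 mice of the same age. The mice were wild type in both groups. Per the labels, muscle samples were pooled within a group of 6 mice, and each pool was hybridised to 1 one-colour (Cy3) Agilent array. With n = 1 array in each group there is no test, no p-value and no spread between animals, and every difference describes these 2 pools.

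These genes belong to the TGF-beta superfamily. Its ligands are made as precursors, cut by furin-type proteases, and bind pairs of type I and type II receptor kinases at the cell surface. Myostatin (Mstn), GDF11 and activin A (the dimer of the Inhba product) signal mainly through Smad2 and Smad3, and myostatin limits muscle size. GDF5, GDF6, BMP4 and BMP7 signal through Smad1, Smad5 and Smad9, a branch that in mice opposes the loss of mass in denervated muscle. Follistatin (Fst) traps activin and myostatin, and noggin (Nog) traps BMPs.

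The signal is given here as the processed intensity in percent of the 75th percentile of its own array, which sets the arrays on a common scale. A log2 ratio is log2(cast/control) of that value, and a difference was counted when it reached 1.5-fold. Probes differ in how brightly they bind, so a level compares the arrays for 1 probe and does not rank genes. There were 2 measures of error. Spot-level SD comes from the 250 probes printed 10 times on each array, with a median of 0.10. For each of these it combines the spread of log2 intensity among its spots on the 2 arrays, as an SD of the log2 ratio. The value given for a gene is the median over a broad brightness group of those replicated probes, not a spread of its own spots. Genes as unlike in level as Bmp7 and Nog thus share the value 0.15. The software error combines the error that the scanner software gives each spot on the 2 arrays. Neither covers the spread between mice or between hybridisations.

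The cast array had 56.8% of probes well above background and the control array 60.6%, and no gene spot was saturated. The dimmest probe that passed as well above background had a processed intensity of 20.6 in cast and 13.1 in control. Muscle fibre transcripts were bright on both arrays, with all 8 markers measured. Across the 15142 genes, 1067 were at least 1.5-fold higher in cast muscle, which is 7.05%, and 1248 at least 1.5-fold lower, which is 8.24%. Their log2 ratios had a median of -0.03. Without scaling that median lay 0.34 higher, with 3591 genes higher and 404 lower. Scaled on spike-in RNAs it lay 0.35 higher, with 3705 and 392, and scaling on the array median gave 1422 and 951.

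Of the 9 measured genes, Gdf5 was at least 1.5-fold higher in cast muscle and Bmp7 and Gdf11 at least 1.5-fold lower. Gdf5 stood 5.47-fold higher, the 29th highest log2 ratio among all measured genes. Bmp7 stood 3.09-fold lower, the 59th lowest. The other 6 differed by less than 1.5-fold, with Fst the highest and Inhba the lowest of them. The median log2 ratio of the 9 was -0.25, with 2 above 0 and 7 below, beside 7110 above and 8032 below among all genes.

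**Figure D1:**
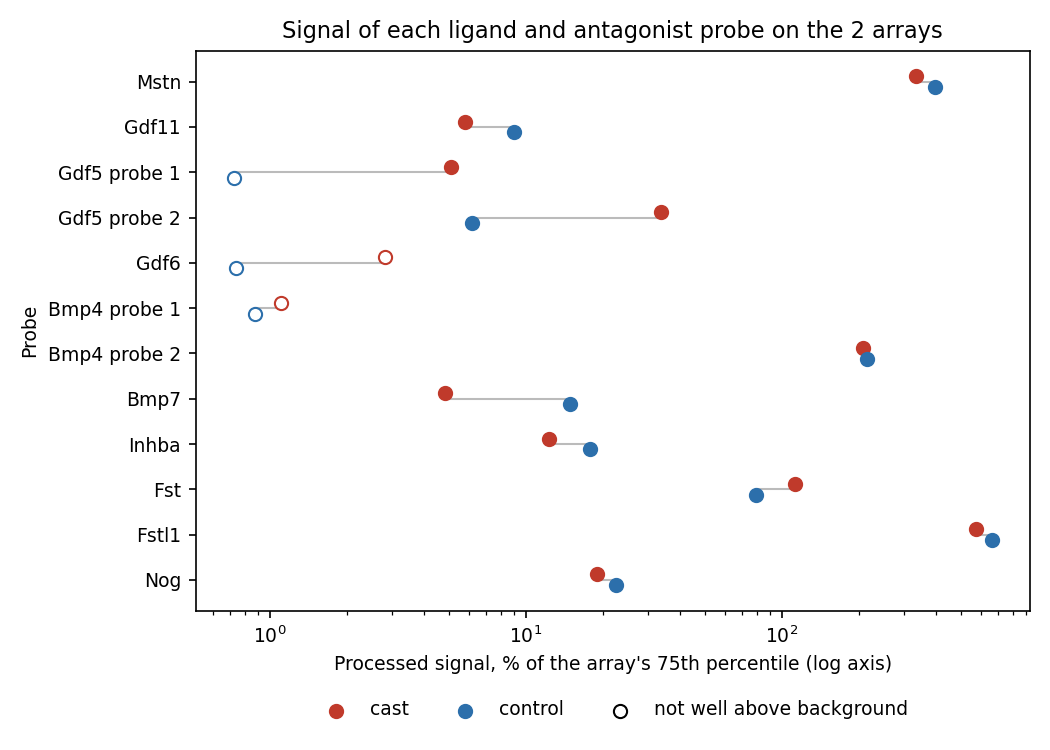
Processed signal of each of the 12 probes (rows) in percent of the array's 75th percentile, on a log axis, for the cast array (red) and the control array (blue); open circles were not well above background, and each point is 1 array. The Gdf5 probes lie to the right on the cast array and the Bmp7 probe to the left, while the brighter Bmp4 probe (probe 2) has 207% in cast and 215% in control; levels compare arrays within a row only.

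GDF5 is a BMP-type ligand best known for joint and tendon formation, and in adult mouse muscle it is induced by denervation. Its transcript was read by 2 probes, 1189 bases apart on chromosome 2 of the mm9 assembly, both on the minus strand. The brighter probe, at chr2:155766801-155766860, had 33.6% of the 75th percentile in cast muscle and 6.14% in control muscle. Its processed intensity was 163 ± 17.2 on the cast array and 23.6 ± 4.15 on the control array (software error, n = 1 array each). The log2 ratio was 2.45, with a spot-level SD of 0.15 and a software error of 0.30.

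The dimmer Gdf5 probe, at chr2:155768050-155768109, passed as well above background in cast muscle alone. It had 5.12% of the 75th percentile in cast muscle and 0.72% in control muscle, where the scanner software had replaced a signal at background by a surrogate. Set against the dimmest control signal that passed, Gdf5 was at least 1.504-fold higher in cast muscle by this probe, a bound only just past 1.5-fold. The cast intensity behind that bound was 24.9 ± 4.95 (software error). Both probes thus gave the same direction, and the size rests on the brighter one. The sequence of this dimmer probe is shown with those of the probes for Gdf11, Inhba and Nog, the 4 of the 12 probes with at least 2 of 3 forward reading frames free of stop codons; they are what the array read of a BMP-type ligand, a myostatin-type ligand, an activin subunit and an antagonist. They are given 5′ to 3′ in lower case, as the array design lists them.
Gdf5: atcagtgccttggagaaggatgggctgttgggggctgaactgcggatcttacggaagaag
Gdf11: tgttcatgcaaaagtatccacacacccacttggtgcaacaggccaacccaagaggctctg
Inhba: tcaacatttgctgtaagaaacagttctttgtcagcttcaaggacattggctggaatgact
Nog: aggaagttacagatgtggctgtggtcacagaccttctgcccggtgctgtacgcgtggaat

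How far Gdf5 stood above control muscle depended on the dim control value. Before background subtraction the brighter probe had a mean spot intensity of 220 on the cast array and 83.6 on the control array. The 153 negative control spots, which match no mouse transcript, had a median of 68.2 and a highest value of 81.9 on the cast array. On the control array they had a median of 60.9 and a highest value of 90.9, and 1 of them was as bright as the Gdf5 probe or brighter. With normexp background correction, which adds an offset of 50 and so compresses dim signals, the log2 ratio of Gdf5 was 1.12, and over all settings it ran from 1.12 to 2.80. Of the 3029 dimmest genes, among which Gdf5 lies when genes are ranked by mean level, 6.77% were at least 1.5-fold higher in cast muscle.

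Gdf5 is also a gene of tendon and joint tissue, so the markers of those tissues were read on the same arrays. In a muscle pool, more cells of a type and more RNA per cell cannot be told apart. Of 7 tendon markers, 5 were at least 1.5-fold lower in cast muscle and 0 at least 1.5-fold higher, with a median log2 ratio of -1.11, and none was at background. Their summed level was 3878% of the 75th percentile in cast muscle and 4168% in control muscle. The tendon factor Scx was at 0.48 and the matrix protein Thbs4 at 0.46, while Tnmd was at -1.25 and Kera at -2.41. Of 5 cartilage and bone markers on the array, only Col9a1 was measured on both arrays, at -1.33 by its brighter probe and 0.28 by the other. Acan passed in cast muscle alone, Col2a1 in control muscle alone, and Ibsp and Sp7 in neither. The part of tendon or cartilage in the Gdf5 value was not tested.

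Gdf6, a ligand close to GDF5, had 1 probe, at chr4:9789396-9789455 on the plus strand. Its processed intensity was 13.7 in cast muscle, with a software error of 4.604, and 2.84 ± 2.84 in control muscle, the control value again a surrogate. Before background subtraction it had 86.9 on the cast array, above all 153 negative control spots there, and 65.5 on the control array, where 5 negative control spots were as bright or brighter. No fold is given for it, because neither array measured it.

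BMP7, a BMP ligand with roles in kidney and fat, had the lowest log2 ratio of the 9 measured genes. Its probe, at chr2:172695203-172695262 on the minus strand, had 4.81% of the 75th percentile in cast muscle and 14.9% in control muscle. The processed intensity was 23.4 ± 5.07 on the cast array and 57.2 ± 6.41 on the control array (software error). The cast value lay close to 20.6, that of the dimmest probe that passed there. Before background subtraction and scaling the spot had 97.4 on the cast array and 125.7 on the control array. The log2 ratio was -1.63, with a spot-level SD of 0.15 and a software error of 0.35. It stayed below 0 in every setting run, from -1.63 to -0.70, and was nearest to 0 with normexp. Of the same 3029 dimmest genes, which hold Bmp7 too, 8.85% were at least 1.5-fold lower.

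Fibroblasts also make BMPs, so their transcripts were read beside Bmp7 and Bmp4. With 75th percentile scaling, all 7 fibro-adipogenic and fibroblast markers were below 0. Of them 3 were at least 1.5-fold lower, with Col1a1 at -1.76, Col3a1 at -0.80 and Lum at -0.68. Their median was -0.29, and their summed level was 11697% of the 75th percentile in cast muscle and 16306% in control muscle. Pdgfra, which marks fibro-adipogenic cells, was at -0.07. The marker Dcn, at -0.29, turned above 0 unscaled (0.04) or scaled on spike-ins (0.06). Markers nearer to 0 turned too, because these settings raise every ratio by the same amount. The part of fibroblasts in the Bmp7 and Bmp4 values was not tested.

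BMP4, a BMP ligand made by several cell types of muscle, showed little difference by the probe that measured it. That probe, at chr14:47003391-47003450 on the minus strand, had 207% of the 75th percentile in cast muscle and 215% in control muscle. The log2 ratio of Bmp4 was -0.05 with a spot-level SD of 0.09. It turned above 0, up to 0.30, when arrays were scaled by median or spike-in or left unscaled, where the median of all genes moves up too. The second Bmp4 probe lies 133 bases away and passed as well above background on neither array. Its mean spot intensity of 58.8 on the cast array and 56.2 on the control array lay below nearly all negative control spots, of which 152 and 151 of 153 were as bright or brighter. Only 15.0% of its bases are G or C. Of 67 probes on the array with under 20% G and C, 1 was measured on both arrays, against 9919 of 17922 probes with 40% to 50%.

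Myostatin itself differed little. The Mstn probe, at chr1:53124482-53124541 on the plus strand, had 334% of the 75th percentile in cast muscle and 397% in control muscle, a log2 ratio of -0.25. The spot-level SD at this brightness was 0.08 and the software error of the probe 0.20. The unscaled intensity ran the other way, with 1624 ± 162 on the cast array and 1529 ± 153 on the control array (software error). Unscaled, the log2 ratio was 0.09, and on spike-in scaling it was 0.10, still below the median of all genes in those settings, 0.31 and 0.32.

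GDF11, the closest relative of myostatin, was 1.55-fold lower in cast muscle, just past the 1.5-fold threshold. Its probe, at chr10:128322284-128322343 on the minus strand, had 5.80% of the 75th percentile in cast muscle and 8.98% in control muscle. The log2 ratio was -0.63 with a spot-level SD of 0.15 and a software error of 0.32. Before background subtraction and scaling the spot was equally bright on the arrays, with 102.4 on the cast array and 101.2 on the control array. The log2 ratio was -0.29 with normexp, -0.29 with no scaling and -0.48 with loess scaling, so the 1.5-fold difference was not kept there.

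Inhba, the subunit of activin A, was 1.45-fold lower in cast muscle. Its probe, at chr13:16118634-16118693 on the plus strand, had 12.3% of the 75th percentile in cast muscle and 17.8% in control muscle, a log2 ratio of -0.54 with a spot-level SD of 0.15 and a software error of 0.24. Here too the spot itself was equally bright before subtraction and scaling, with 138 on both arrays. The ratio stayed below 0 in every setting run and was nearest to 0 with spike-in scaling, at -0.19.

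**Figure D2:**
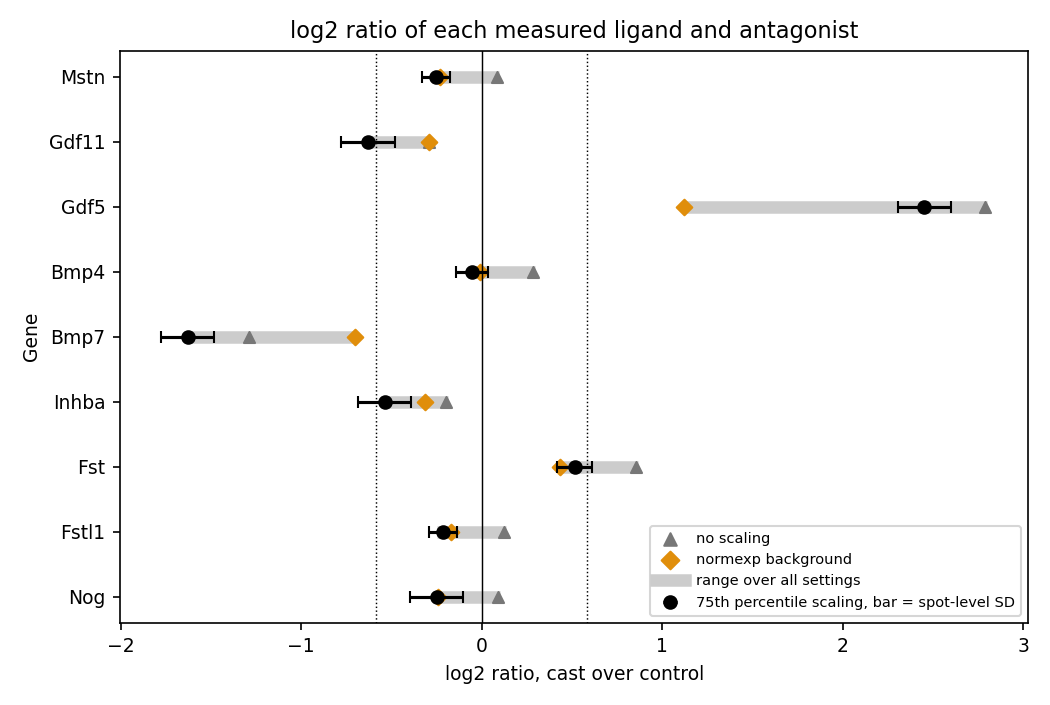
The log2 ratio of cast over control for the 9 measured genes (rows). Black points give the 75th percentile scaling, with the spot-level SD of replicated probes in the same broad brightness group as a bar. Grey bands give the range over all settings, triangles no scaling and diamonds normexp. Dotted lines mark 1.5-fold. Gdf5 lies past 1.5-fold on the high side and Bmp7 on the low side over their whole ranges, Gdf11 only over part of its range, and the ranges of Mstn, Bmp4, Fstl1 and Nog cross 0.

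Of the antagonists Fst, Fstl1 and Nog, follistatin had the largest difference. The Fst probe, at chr13:115243565-115243624 on the minus strand, had 113% of the 75th percentile in cast muscle and 78.9% in control muscle. This is 1.43-fold higher, a log2 ratio of 0.52 with a spot-level SD of 0.10 and a software error of 0.20. It was below 1.5-fold, and past it with median scaling (0.59), no scaling (0.85) and spike-in scaling (0.86). The ratio of Fst was above 0 in every setting run.

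Fstl1, a secreted protein related to follistatin that muscle releases and that can bind BMP4, had 571% of the 75th percentile in cast muscle and 661% in control muscle by a probe at chr16:37836492-37836551 on the plus strand. The log2 ratio was -0.21 with a spot-level SD of 0.08. Noggin had 19.0% in cast muscle and 22.6% in control muscle by a probe at chr11:89162849-89162908 on the minus strand, a log2 ratio of -0.25 with a spot-level SD of 0.15. Both ratios turned above 0 when unscaled or scaled on spike-ins, up to 0.14 for Fstl1 and 0.10 for Nog, below the median of all genes there. For both, the difference was close to the software error of about 0.20 for Fstl1 and 0.23 for Nog.

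**Figure D3:**
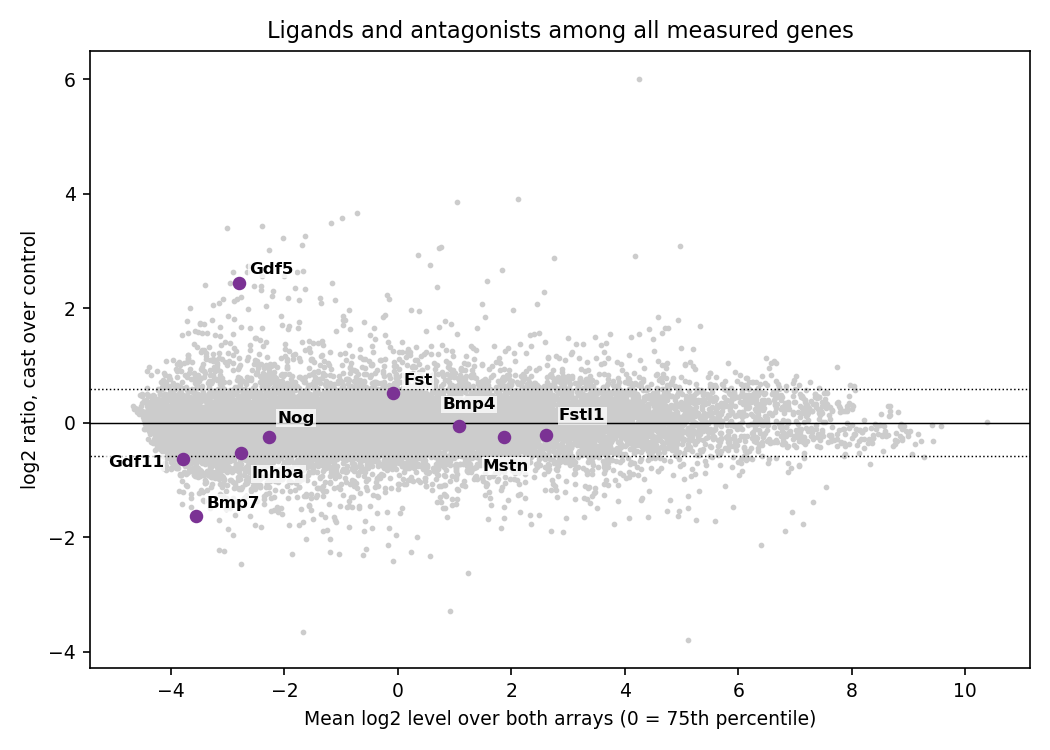
The log2 ratio of cast over control against the mean log2 level over both arrays for 15142 measured genes (grey, 0 being the 75th percentile), with the 9 measured ligands and antagonists in purple. Dotted lines mark 1.5-fold. Gdf5 at 2.45 and Bmp7 at -1.63 lie outside the main cloud at the dim end, Gdf11 at -0.63 lies at its lower edge, and the other 6 lie within it.

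The rest of the pathway was read from lists by role, with DNA methylation enzymes as a list of their own, 114 genes in all, of which 97 were measured. Of these, 11 were at least 1.5-fold higher in cast muscle and 13 at least 1.5-fold lower, or 11.3% and 13.4%, beside 7.05% and 8.24% of all genes. The median log2 ratio was -0.04, beside -0.03 for all genes. With normexp, 6 of the 97 were at least 1.5-fold higher and 7 lower, and with spike-in scaling 28 and 3. With 75th percentile scaling and the brightest probe of each gene, the Smad list had 0 of 14 members past 1.5-fold in either direction. The second probe of Skil gave 0.60, past it.

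Of 18 other ligands measured, 2 were at least 1.5-fold higher and 4 at least 1.5-fold lower, beside 7.05% and 8.24% of all genes. Bmp8a was at 1.01 and Inha, the inhibin alpha subunit, at 0.81. Gdf1, which in mice shares a transcript with the ceramide synthase Cers1, was at -0.84, and its second probe gave -0.48. The embryonic ligand Nodal was at -0.82. The other ligands past the threshold were Gdf10 at -0.61 and Lefty1 at -0.64. With normexp, Inha (0.53), Nodal (-0.46), Gdf10 (-0.47) and Lefty1 (-0.40) were below 1.5-fold, while Bmp8a (0.73) and Gdf1 (-0.79) stayed past it. A further 7 ligands of the list, among them Gdf15 and Bmp10, passed on neither array.

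Binding proteins held some of the larger differences. Wfikkn1, which binds myostatin and GDF11, had 26.3% of the 75th percentile in cast muscle and 8.24% in control muscle, a log2 ratio of 1.68 that was 0.72 with normexp. Ltbp2, a matrix protein of the latent TGF-beta binding family, was at 1.29. Chrdl2, a chordin-like BMP antagonist, had 13.7% in cast muscle and 38.1% in control muscle, a log2 ratio of -1.47. Ltbp4 was at -0.61, and its second probe gave -0.53. These were the 2 higher and 2 lower of 18 measured, beside 7.05% and 8.24% of all genes, and the median of the list was -0.08. With normexp, Ltbp4 (-0.55) was below 1.5-fold, while Ltbp2 (0.83) and Chrdl2 (-0.98) stayed past it, as did Wfikkn1.

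The proteases that cut the precursors differed in direction. Pcsk6 (PACE4) had 105% of the 75th percentile in cast muscle and 220% in control muscle, a log2 ratio of -1.07. Pcsk5 was at 0.72 and Furin at 0.51. Bmp1, which despite its name is a protease and releases myostatin from its propeptide, was at -0.61, and its second probe gave -0.44. Of 6 measured, 1 was at least 1.5-fold higher and 2 lower, beside 7.05% and 8.24% of all genes. With normexp, Pcsk5 (0.38) and Bmp1 (-0.55) were below 1.5-fold, while Pcsk6 (-0.97) stayed past it.

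Receptors lay on both sides of 0. Of 19 measured, 9 were above 0 and 10 below. At least 1.5-fold higher was 1 and at least 1.5-fold lower were 3, beside 7.05% and 8.24% of all genes. The higher one, Acvr2a, a type II receptor for activin and myostatin, was at 0.59, and its second probe gave 0.70. The TGF-beta type I receptor Tgfbr1 was at 0.54 and its second probe gave 1.03. The main myostatin receptor Acvr2b was at 0.16, the BMP type I receptor Bmpr1a at 0.05 and Bmpr2 at -0.14. Bmpr2 turned above 0 unscaled (0.20) or scaled on spike-ins (0.21). The 3 receptors at least 1.5-fold lower were Amhr2 at -0.82, the BMP coreceptor Rgma at -0.79 and Acvrl1 (ALK1), an endothelial receptor, at -0.63. With normexp, Acvr2a (0.52) and Acvrl1 (-0.54) were below 1.5-fold, while Amhr2 (-0.79) and Rgma (-0.69) stayed past it. Unscaled, Amhr2 (-0.48), Rgma (-0.45) and Acvrl1 (-0.30) were below 1.5-fold, while Acvr2a (0.93) stayed past it. By the brightest probe of each, the 5 endothelial markers had a median of -0.32, with 0 past 1.5-fold and 0 at background. Kdr was at -0.56 by that probe, and its second probe gave -0.89. The summed level of the 5 was 1195% of the 75th percentile in cast muscle and 1643% in control muscle. Their part in the Acvrl1 value was not tested.

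With the percentile scaling, Smad transducers showed no difference of 1.5-fold. In the BMP branch, Smad1 was at 0.46, with a second probe at 0.14, and Smad5 was at 0.16, while Smad9 passed on neither array. Smad1 was past 1.5-fold unscaled (0.80) or scaled on spike-ins (0.81), where the median of all genes was 0.31 and 0.32. In the myostatin and activin branch, Smad2 was at -0.40 and Smad3 at -0.24. Another Smad3 probe gave 0.05, and Smad3 turned above 0 unscaled (0.10) or scaled on spike-ins (0.11). The shared partner Smad4 was at 0.04, with another probe at -0.24, and was below 0 with quantile scaling and with the mean of probes. Of the ubiquitin ligases in the list, Nedd4l was at 0.41 by its brighter probe and -0.0003 by the other. Smurf2 was at -0.39, with probes that gave values up to -0.24.

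Transcripts known to respond to these ligands were at least 1.5-fold higher for 4 of 15 measured and lower for 1. Among all genes 7.05% were higher and 8.24% lower. Tgif1, a corepressor of Smad2 and Smad3, had 240% of the 75th percentile in cast muscle and 94.9% in control muscle, a log2 ratio of 1.34. Id2 was at 0.76, Atoh8 at 0.68 and Ccn2 at 0.61, while the homeobox gene Dlx3 was at -1.06. With normexp, Id2 (0.42) and Atoh8 (0.37) were below 1.5-fold, while Tgif1 (1.27), Ccn2 (0.61) and Dlx3 (-1.01) stayed past it. The classical BMP targets Id1 and Id3 were at -0.16 and -0.06, and both turned above 0 unscaled or scaled on spike-ins, Id3 on median scaling as well. Fbxo30 (MUSA1), a ubiquitin ligase that the BMP branch represses in mouse muscle, was at 0.57 and its second probe gave 0.22.

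**Figure D4:**
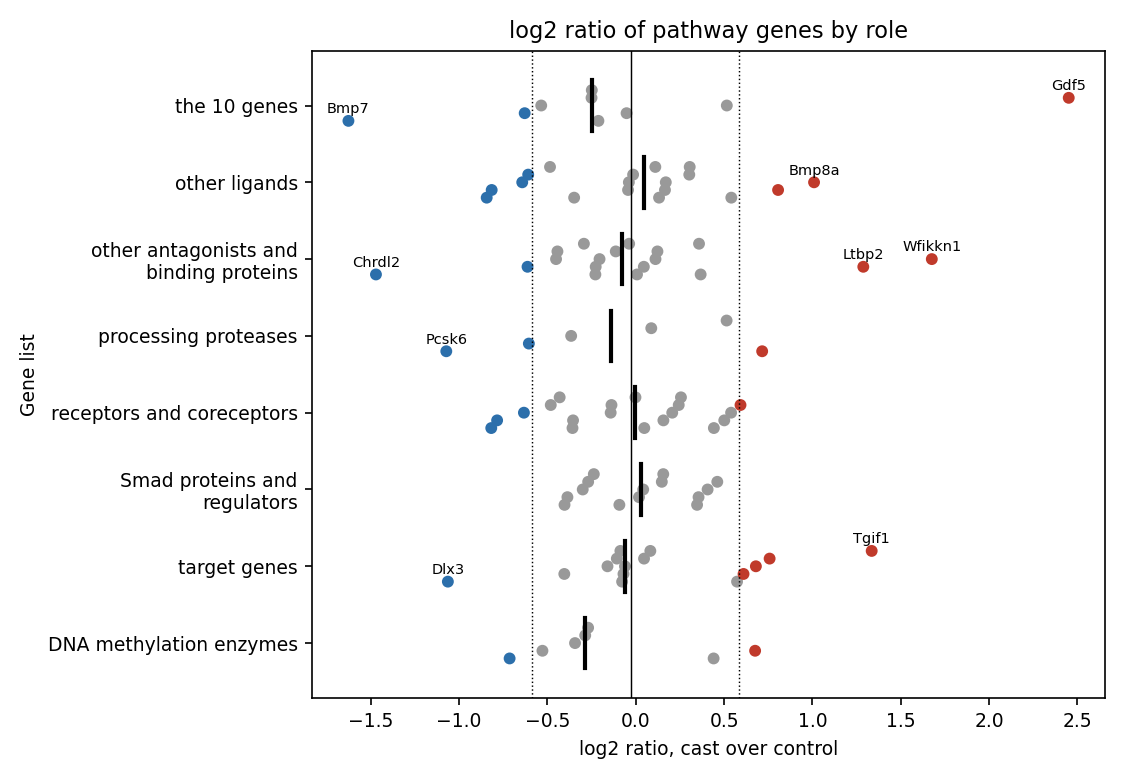
The log2 ratio of cast over control for each measured gene of the 10 and of 7 further lists by role (rows); each point is 1 gene, red at least 1.5-fold higher, blue at least 1.5-fold lower, grey between, and short black bars are list medians. The solid line is the median of all genes (-0.03), dotted lines mark 1.5-fold, and genes past 2-fold are named. Gdf5 is the highest point and Bmp7 the lowest.

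DNA methylation enzymes were read because in mouse muscle a loss of the methyltransferase Dnmt3a has been linked to higher Gdf5. Dnmt3a had 424% of the 75th percentile in cast muscle and 696% in control muscle, a log2 ratio of -0.71 with a spot-level SD of 0.08. It stayed below 0 in every setting run, but the 1.5-fold difference was not kept unscaled (-0.38) or scaled on spike-ins (-0.36). The maintenance enzyme Dnmt1 was at -0.53, Dnmt3b at 0.44, with probes that gave values down to -0.19, and the demethylating enzyme Tet2 was at 0.68. Of the 7 enzymes, 1 was at least 1.5-fold higher and 1 lower, beside 7.05% and 8.24% of all genes. Whether the Dnmt3a and Gdf5 values are tied was not tested.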

How the data were processed

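RNA from pooled gastrocnemius was measured on 1 Agilent one-colour array per group. Spot intensities were read by Feature Extraction 9.5 (Agilent), the tool that the submitters' processing notes name. The deposited processed intensity had, per the file headers, been background-subtracted and detrended within its array, with surrogate values near background and no scaling between arrays, and probe coordinates on mm9. The scanner's flags, also deposited, mark signals well above background. The deposited series table, an alternative only, holds the same intensity as a percentage of a 75th percentile taken on each array, of 44397 spots, with 55.4% of values whole. Its columns have medians of 8.70 (cast) and 9.00 (control), so its scale, centring and direction are known.

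Control spots and flagged spots (9 cast, 2 control) were left out, spots of a probe averaged on the log2 scale, and each array's 75th percentile over its probes, 486 in cast and 385 in control, was subtracted. A gene was measured when a probe was well above background on both arrays, on over 0.5 of its spots; the brightest such probe gave its value. Gene names came from the array, updated by accession for 26055 of 39429 probes through RefSeq (GRCm38, names only). Predicted LOC and EG names were left out. The computation was tested on simulated data with known folds before use. Python 3.11.15, R 4.3.3 and limma 3.58.1 (normexp, quantile, loess) were used. With 2 arrays there is no test. For a probe well above background on 1 array, the fold is a bound.

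The 10 genes, the pathway and marker lists, the 1.5-fold threshold and the naming rule were chosen with earlier results of these data known. Named were all 10 genes, up to 4 genes per list with the largest absolute log2 ratio, and a fixed set of receptors, Smads, targets and Dnmt3a; Gdf10, Lefty1 and Ccn2, to complete their counts, and Tgfbr1, whose probes differ, were added after their values were seen. No genes were named by likeness of pattern, because 2 arrays give none. By the brightest probe of each gene, the remaining marker lists had medians of 0.18 for satellite cells (2 of 5 at least 1.5-fold higher) and -0.24 for muscle fibres (1 of 8 lower). Macrophages, Schwann cells and adipocytes had -0.03, 0.04 and -0.17, with none past 1.5-fold. Further probes of Tnnt3 (-0.94), Cd34 (-0.60), Itgam (-0.59) and Mbp (0.64) were past 1.5-fold. Alternatives were other scalings, background correction, probe rules, detection filters, the deposited table and a 2-fold threshold.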

Additional observations from a re-analysis of the deposited data

How the results depend on the processing

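Gdf5 stayed at least 1.5-fold higher and Bmp7 at least 1.5-fold lower in cast muscle under each scaling, background, probe, detection and source setting run; both drop out when genes below the median level are left out, since they are dimmer than that. Of the 9 measured genes, 1 was higher and 2 lower. Higher were 2 with median, spike-in and no scaling (Fst joins) and with no filter on dim probes (Gdf6 joins, unmeasured otherwise), and 0 when dim genes are dropped. Lower was 1 with each other scaling and none, with normexp and a 2-fold threshold (Gdf11 leaves), and 0 when dim genes are dropped. Of the 97 further pathway genes, 11 were higher and 13 lower. No scaling gave 27 and 3, spike-in scaling 28 and 3, normexp 6 and 7, and a 2-fold threshold 4 and 3; median scaling gave 8 lower, and the brighter genes gave 3 higher. Of all genes, 1067 were higher and 1248 lower. No scaling gave 3591 and 404, spike-in scaling 3705 and 392, a 2-fold threshold 338 and 319, no filter 1978 and 2732, and the brighter genes 536 and 530; normexp gave 682 lower. The cause was not tested beyond what each setting does by construction. No paired analysis was possible because each group has 1 array. Signal close to background limits Gdf5, Gdf6, Gdf11, Bmp7 and Inhba most, and no replicate arrays exist to leave out here.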
